A study of Mus musculus with 32 samples.

Results

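The genes that encode the proteins of the cytosolic ribosome were examined in whole-lung RNA from mouse pups raised in normal or high oxygen. Members were chosen by gene name from the array annotation: every Rps or Rpl gene with a plain number, including the a, x and l forms, together with Rpsa and the stalk genes Rplp0, Rplp1 and Rplp2. This gave 80 genes on 183 probes, of 35715 gene names on the array. A probe was kept when the scanner software called it well above background in every pup, 4 of 4, of some group, which left 79 member genes on 179 probes (32 genes of the small and 47 of the large subunit), of 27109 gene names with such a probe. Only Rpl3l, the muscle form of Rpl3, dropped out. RNA from 32 wild-type C57Bl/6J pups of both sexes was hybridised to one-colour Agilent mouse arrays, 1 pup per array and 4 pups in each of 8 groups. Pups breathed 21% O2 or, from postnatal day 1, 85% O2, which models the lung injury of preterm infants known as bronchopulmonary dysplasia (BPD). They received either a scrambled antimiR or antimiR-34a, an oligonucleotide made to block the microRNA miR-34a, by intraperitoneal injection in the first days of life, and lungs were taken at postnatal day 5 (P5) or 14 (P14). All 8 groups had thus been injected, no uninjected group was analysed here, the nursing dams were rotated between oxygen levels, and the level of mature miR-34a itself was not analysed here.

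Ribosomal proteins assemble with ribosomal RNA in the nucleolus into a small subunit, which reads the messenger RNA, and a large subunit, which joins the amino acids. Their genes are among the most highly expressed in every cell. The messenger RNAs carry a run of pyrimidines at their 5′ end, the terminal oligopyrimidine (TOP) motif, through which the growth kinase mTORC1 and the RNA-binding protein LARP1 control their translation and stability. When assembly is disturbed, free ribosomal proteins, RPL5 and RPL11 above all, bind MDM2 and so stabilise the tumour suppressor p53. RPS27L, a close relative of RPS27, is itself a p53 target.

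The run of pyrimidines is shown first, because it is the feature of sequence that the family is known for, in genes described further on. Each line gives 15 bases before and 15 from an annotated RefSeq start of transcription on (GRCm38.p6, gene strand, 5′ to 3′), with the longest run of C and T in capitals. Of equally long runs, as in Rps7, only the first is in capitals. Where several starts were listed for a gene, the one with the longest run was taken.
Rps27l: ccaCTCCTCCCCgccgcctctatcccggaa
Rps2: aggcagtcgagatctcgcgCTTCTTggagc
Rpl12: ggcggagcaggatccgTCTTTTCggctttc
Rplp2: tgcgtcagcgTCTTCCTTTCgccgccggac
Rpl38: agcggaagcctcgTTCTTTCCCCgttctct
Rpl7a: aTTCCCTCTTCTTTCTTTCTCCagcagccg
Rps21: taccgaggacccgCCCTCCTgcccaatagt
Rpl5: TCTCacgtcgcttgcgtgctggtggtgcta
Rps7: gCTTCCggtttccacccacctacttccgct
These windows lie at chr9:66946071-66946100 (Rps27l, plus strand), chr17:24720048-24720077 (Rps2, plus), chr2:32961697-32961726 (Rpl12, plus), chr7:141447636-141447665 (Rplp2, plus), chr11:114668565-114668594 (Rpl38, plus), chr2:26910792-26910821 (Rpl7a, plus), chr2:180257364-180257393 (Rps21, plus), chr5:107900513-107900542 (Rpl5, plus) and chr12:28635939-28635968 (Rps7, minus). The first 5 belong to genes whose probes had higher signal in 85% O2 at P14 and the last 4 to genes whose probes had lower signal. Rps15, Rpl41 and Rpsa also had higher signal, but their longest runs are of 3, 3 and 5 bases and are not shown. A start was listed for 58 of the 79 members. For members and all genes alike, the start with the longest run was counted, so a gene with more listed starts had more chances. A run of at least 6 pyrimidines on the gene strand, in any order of C and T, was found in 36 of these 58 (62.1%), against 8833 of all 27025 genes in the table (32.7%), and a run of at least 8 in 26 members (44.8%) against 3760 genes (13.9%). A run of at least 6 was found in 27 of 42 members called higher in 85% O2 at P14, in 2 of 5 called lower and in 7 of 11 not called. The run thus did not set the members called higher apart from those not called. The match is a count of letters in a short window around an annotated start and not a mapped TOP motif.

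Each array lay on 1 of 4 slides, and every slide held pups of 1 age and 1 oxygen level, so slide cannot be told apart from oxygen or from age. Scrambled antimiR arrays filled 1 row of a slide and antimiR-34a arrays the other, so array row cannot be told apart from the antimiR. Between 33607 and 40776 probes per array were well above background, and no probe was saturated. The 8 lung epithelium markers that were looked up, among them surfactant protein C (Sftpc), were above background on all arrays of every group. Levels are log2 processed signals from which the 75th percentile of the same array was subtracted. The array percentile itself, a measure of how bright the array was, ranged from 9.20 to 10.20 (log2). A gene is given by its brightest kept probe, the level of one gene is not set against that of another, and differences are log2 differences with their standard error (SE) from limma and p-values adjusted over all tested probes. A member is said to be higher or lower, or called, at an adjusted p under 0.05. Because whole lung was measured, fewer cells of a type and less RNA per cell cannot be told apart.

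Whether hyperoxia changed these transcripts near the end of secondary septation was asked first, in the scrambled antimiR groups at P14. Of the 79 members, 54 were higher in 85% O2 than in 21% O2 (68.4%) and 5 were lower (6.33%), while 28.4% of all 38455 tested probes were higher and 32.4% were lower. The median member difference was 0.27, against -0.06 over all tested probes, and 69 members had a positive difference. Both subunits took part, with 21 of 32 small-subunit genes higher and 2 lower, and 33 of 47 large-subunit genes higher and 3 lower. Each oxygen level lay on its own slide, so slide and oxygen cannot be told apart here. In 51 of the genes called higher, and in 4 of those called lower, the values of the 4 pups of one group did not overlap those of the other. The fifth gene called lower, Rpl10l, also had groups apart, but it was kept only through the P14 21% O2 groups, so its direction was fixed by the filter. Of all tested probes, 25.6% were called higher and 28.1% lower without overlap, which is 90.1% and 86.7% of the probes called, so separation was common to called probes. The size of this shift, and whether it exceeded that of all probes, depended on how the arrays were scaled. With each array set to its 95th percentile, 29 members were higher and 11 lower (median 0.09), with quantile normalization 23 were higher and 11 lower (median 0.04), and with the authors' processed values 21 were higher and 11 lower (median 0.03). Higher calls made up 91.5% of all member calls in the first scaling, 72.5% with the 95th percentile and 67.6% with quantile normalization. Of all tested probes, 19.6% were higher with the 95th percentile (members 36.7%) and 29.7% with quantile normalization (members 29.1%). With quantile normalization the share of members called higher was thus no larger than that of all probes. The share called lower was 43.1% of all probes with the 95th percentile and 27.5% with quantile normalization, against 13.9% of members in each. The all-probe medians were -0.25 and 0.01.

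The mean over 72 members shows the same shift per pup. These were measured on every array, and 4 copies listed by hand as restricted in expression (Rps27l, Rpl10l, Rpl39l and Rps4l) were left out. In 21% O2 with scrambled antimiR at P14 it lay between 6.84 and 6.89 (6.87 ± 0.03, SD, n = 4), and in 85% O2 between 7.08 and 7.17 (7.14 ± 0.04, n = 4), with no overlap. The antimiR-34a groups at P14 gave 6.86 ± 0.07 and 7.05 ± 0.07 (n = 4 each). At P5 the 4 group means lay between 6.84 and 6.95. On the quantile-normalized scale the corresponding means at P14 in scrambled antimiR pups were 16.69 ± 0.07 and 16.72 ± 0.04 (n = 4 each), and the groups overlapped there.

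**Figure D1:**
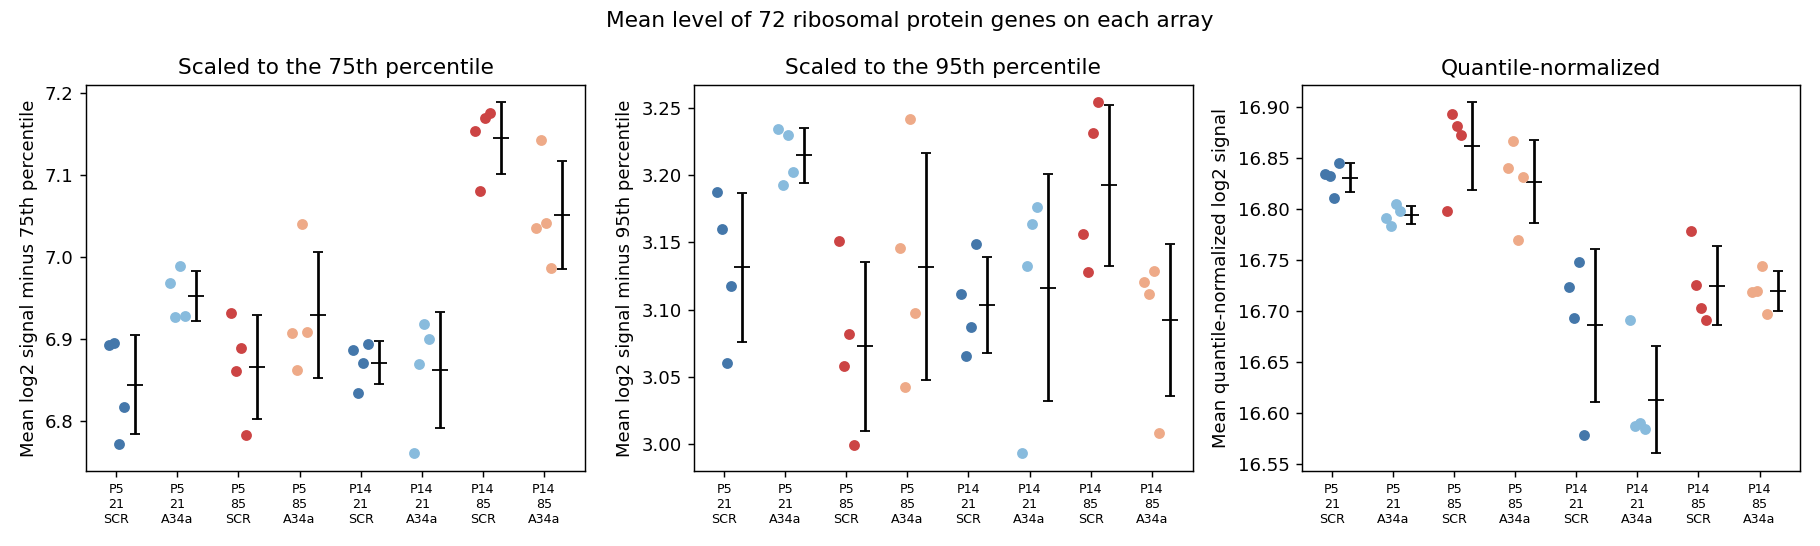
Mean log2 level of 72 ribosomal protein genes, one point per pup, in the 8 groups under 3 scalings of the arrays. The genes were measured on every array, and the 4 copies named in the text were left out. Groups are given by age, % O2 and antimiR (SCR is scrambled antimiR and A34a is antimiR-34a). The black bar is the group mean and its whiskers are 1 SD (n = 4). With the 75th percentile scaling the P14 85% O2 scrambled antimiR pups (7.08 to 7.17) lie above the P14 21% O2 pups (6.84 to 6.89), while after quantile normalization these groups overlap (16.58 to 16.75 and 16.69 to 16.78).

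Rps27l, the p53-responsive form of Rps27, had the largest rise of all members. At P14 in scrambled antimiR pups the level of Rps27l was 4.77, 4.74, 4.80 and 4.84 in 21% O2 and 6.24, 6.14, 6.13 and 6.12 in 85% O2. Every 85% O2 pup was above every 21% O2 pup, and the difference was 1.37 ± 0.09 (SE), a 2.58-fold rise with an adjusted p of 3.23e-08. It held in all alternatives tried, where it lay between 1.14 and 1.39. Rps27, its ubiquitous counterpart, had a difference of 0.19 ± 0.07 (adjusted p = 0.0284) that turned to -0.08 with quantile normalization and with the authors' processed values.

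The next genes by size came from both subunits. Rps2, a small-subunit protein near the entry of the messenger RNA channel, was at 6.03, 5.97, 6.07 and 5.91 in 21% O2 and at 6.99, 6.94, 6.88 and 6.92 in 85% O2, a difference of 0.94 ± 0.10 (adjusted p = 3.19e-06). Its other probe gave 0.27 with an adjusted p of 0.108, so the size of the Rps2 difference rests on 1 probe. Rps15, a protein of the head of the small subunit, was at 5.73, 5.64, 5.73 and 5.70 in 21% O2 and at 6.45, 6.46, 6.54 and 6.59 in 85% O2 (difference 0.81 ± 0.08). Rpl41, the smallest protein of the ribosome, was at 7.54, 7.57, 7.55 and 7.70 in 21% O2 and at 8.25, 8.30, 8.48 and 8.53 in 85% O2 (difference 0.80 ± 0.08). The groups were well apart in each of these genes. Rpl12, which sits at the base of the stalk, was at 6.60, 6.55, 6.71 and 6.64 in 21% O2 and at 7.34, 7.25, 7.34 and 7.47 in 85% O2 (difference 0.72 ± 0.07). Rpsa, which is also known as a laminin receptor, was at 7.24, 7.18, 7.20 and 7.27 in 21% O2 and at 7.84, 7.80, 7.999 and 8.06 in 85% O2 (difference 0.70 ± 0.07). All 4 kept probes of Rpsa were called higher, with differences from 0.70 to 1.26. Rps2, Rps15, Rpl41, Rpl12 and Rpsa kept their call in all alternatives tried, with lowest differences of 0.69, 0.58, 0.45, 0.47 and 0.43.

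The lateral stalk recruits the elongation factors to the large subunit, and the brightest probes of all 3 of its genes were higher in 85% O2 at P14. Those of Rplp0 and Rplp2 are annotated to another chromosome than the gene. Rplp0 went from 7.81, 7.79, 7.76 and 7.80 in 21% O2 to 8.25, 8.26, 8.30 and 8.36 in 85% O2 (difference 0.50 ± 0.06, adjusted p = 1.27e-05). Rplp1 went from 7.71, 7.54, 7.61 and 7.75 to 7.90, 7.96, 8.21 and 8.21 (0.42 ± 0.08, adjusted p = 0.000744), and Rplp2 from 7.55, 7.50, 7.56 and 7.44 to 7.84, 7.95, 8.10 and 8.20 (0.51 ± 0.08, adjusted p = 6.25e-05). No 85% O2 pup fell within the 21% O2 range in any of the 3 genes. The Rplp1 and Rplp2 calls were lost with quantile normalization and with the authors' processed values, while that of Rplp0 was kept, at 0.22 in the lowest case.

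Other named members with known roles outside or at the edge of the ribosome were higher by smaller amounts. Rpl22, Rpl38 and Rpl24 had differences of 0.56, 0.53 and 0.48, and these 3 were called in all alternatives. RPL38 is known for its part in translating homeobox messenger RNAs. Rps27a, which is made as a fusion with ubiquitin, Rpl13a, and Rps14 had differences of 0.44, 0.38 and 0.27 and lost their calls with quantile normalization and the authors' values. The Rps14 call was lost in 7 of 19 alternatives, among them the 95th percentile, the brightness covariate and leaving out replicate 3 or 4 of the 85% O2 group or replicate 2 of the 21% O2 group. Rpl23 (0.23), Rpl39 (0.22), Rps6 (0.19), Rpl11 (0.18), Rpl32 (0.18) and Rpl3 (0.15) were called higher but had differences at or below 0 under at least 1 other scaling, so no direction is given for them. Rps6 is the substrate of the S6 kinases. Rps19 (0.13), Rpl26 (0.12), Rps4x (0.12), Rpl10 (0.07) and Rps3 (0.04) did not pass the test.

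The 5 members called lower at P14 were Rps21, Rpl5, Rpl7a, Rps7 and Rpl10l. The probes behind Rps21, Rpl5, Rpl7a and Rps7 are annotated to chromosomes 10, 13, 1 and 9, while the genes lie on chromosomes 2, 5, 2 and 12, so none of these differences can be assigned to the parent gene whose start is printed above. Rps21, a small-subunit protein, was at 4.92, 4.92, 4.99 and 4.84 in 21% O2 and at 4.19, 3.91, 4.25 and 4.22 in 85% O2, a difference of -0.77 ± 0.07 (adjusted p = 1.44e-06). Rpl5, which carries the 5S ribosomal RNA and binds MDM2, was at 5.18, 5.17, 5.24 and 5.25 in 21% O2 and at 4.93, 4.82 and 4.71 in the 3 pups of 85% O2 with a usable spot, a difference of -0.40 ± 0.07 (adjusted p = 0.000224). Rpl7a, of the large subunit, was at 6.47, 6.42, 6.45 and 6.48 in 21% O2 and at 6.15, 6.17, 6.24 and 6.18 in 85% O2 (-0.27 ± 0.05). Rps7, another MDM2-binding protein, was at 5.90, 5.82, 5.86 and 5.84 in 21% O2 and at 5.79, 5.65, 5.55 and 5.41 in 85% O2 (-0.25 ± 0.07). The 85% O2 pups were below all 21% O2 pups in each of these. Rps21, Rpl5 and Rpl7a were called lower in all alternatives tried, and Rps7 in all but the methods' t-test. The 4 probes of Rpl7a ranged from -0.79 to 0.07, and 2 of them were called lower.

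**Figure D2:**
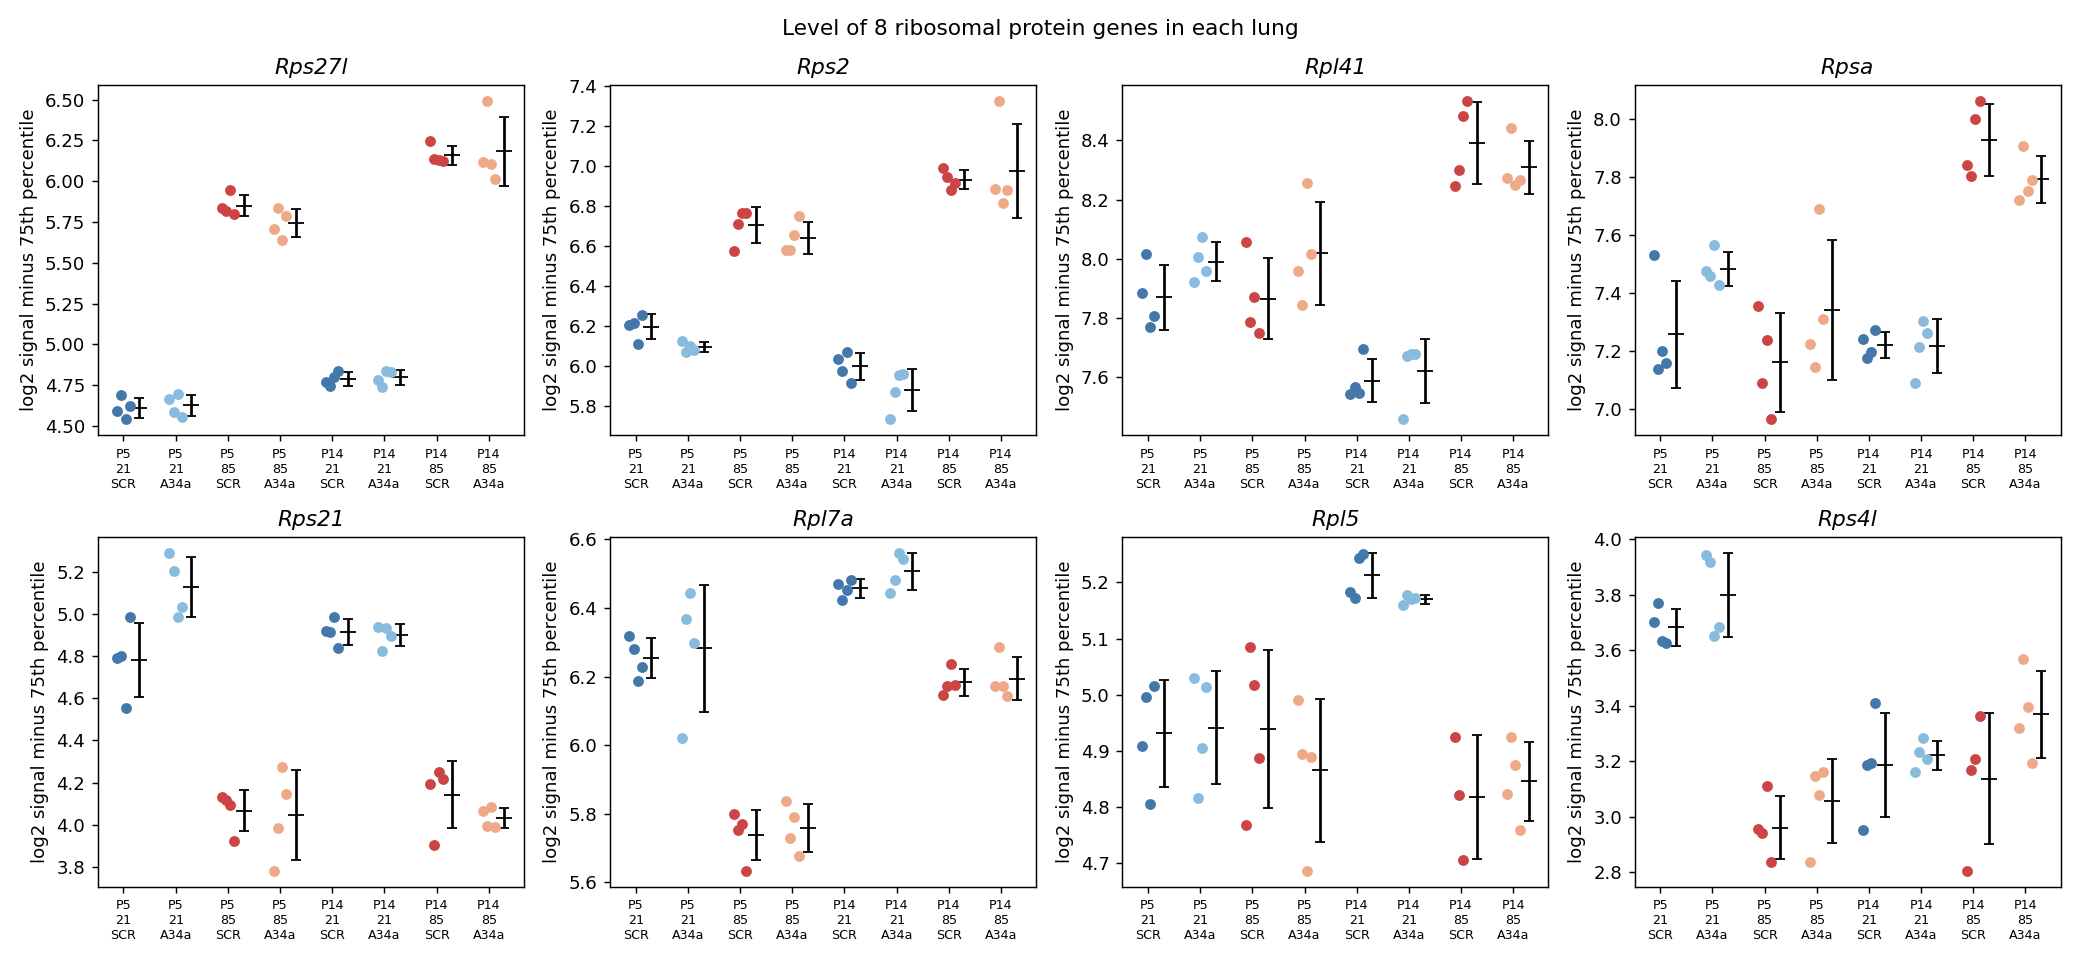
Levels of 8 ribosomal protein genes (log2, scaled to the array's 75th percentile) in the 8 groups, one point per pup, with the group mean and 1 SD in black (n = 4; for Rpl5 in P14 85% O2 scrambled antimiR n = 3). Rps27l and Rps2 are higher in 85% O2 at both ages, Rpl41 and Rpsa at P14, Rps21 and Rpl7a are lower at both ages, Rpl5 is lower at P14 and Rps4l at P5.

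Rpl10l, the fifth gene with lower signal, is an autosomal copy of the X-linked Rpl10 that is known from the testis. It was above background on all 4 arrays of each P14 21% O2 group and on none of the arrays of any other group. This is 1 of its 2 probes, and the other was not above background on all 4 arrays of any group, P14 21% O2 included. Levels in P14 21% O2 scrambled antimiR pups were -3.35, -3.50, -4.22 and -1.58, far below the 75th percentile of the array, and in 85% O2 they were -7.94, -6.85, -6.83 and -7.73, not above background. Rpl10l was kept only through the P14 21% O2 groups, so it had to be lower in 85% O2 and at P5, and its calls are given as a description. The size depended on the background correction: the log2 difference with scrambled antimiR was -4.17 with the processed signal and -0.998 with normexp, and with antimiR-34a -5.52 and -1.78. With the processed signal, where the 85% O2 arrays give only a bound, Rpl10l was at least 7.67-fold lower with scrambled antimiR, a bound that the normexp difference does not reach. The 8 arrays of these groups lay on 1 slide, and each had more probes above background (39009 to 40776) than any other array (38719 at most). Rpl39l, a copy of Rpl39 with restricted expression, was near the limit of detection and had a difference of 1.02 ± 0.46 (adjusted p = 0.0669).

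At P5, near the peak of secondary septation, no shift of the family as a whole was seen. Of 78 tested members, 12 were higher in 85% O2 (15.4%) and 8 lower (10.3%), against 17.5% and 26.4% of all 35982 tested probes, and the median member difference was 0.03. The higher share is thus close to that of all probes. With the 95th percentile scaling 6 were higher and 12 lower. This scaling shifts every probe of an array by the same amount, so the change of direction in the split is not particular to the members. Other bright probes turned too, with 13% higher and 23.5% lower under this scaling (20.1% and 15.2% with the 75th percentile), and of all tested probes 12.5% were higher and 33.7% lower. With quantile normalization 14.1% of members were higher and 12.8% lower (all probes 21.6% and 19.3%). Without replicate 4 of the 21% O2 scrambled antimiR group, whose skeletal muscle markers were the brightest of its group, the counts were again 12 and 8.

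Rps27l and Rps2 were higher at P5 as well. Rps27l was at 4.59, 4.69, 4.54 and 4.62 in 21% O2 and at 5.84, 5.82, 5.95 and 5.80 in 85% O2 (1.24 ± 0.06, adjusted p = 3.89e-09). Rps2 was at 6.20, 6.21, 6.11 and 6.26 in 21% O2 and at 6.58, 6.71, 6.76 and 6.77 in 85% O2 (0.51 ± 0.06, adjusted p = 1.43e-05), and its other probe gave 0.58. The groups were apart in both genes. Rps19, needed to mature the 18S ribosomal RNA and mutated in Diamond-Blackfan anaemia, was at 5.60, 5.65, 5.55 and 5.78 in 21% O2 and at 5.99, 6.22, 6.13 and 6.12 in 85% O2 (0.47 ± 0.08). Rps6 (0.30), Rpl29 (0.27) and Rpl19 (0.27) completed the 6 largest rises. Rpl26, an MDM2-binding protein, was called at 0.15 but lost the call in 12 of 19 alternatives.

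Lower at P5 were Rps4l, Rps21 and Rpl7a by the largest amounts. Rps4l, a copy of the X-linked Rps4x, was at 3.70, 3.77, 3.63 and 3.63 in 21% O2 and at 2.96, 2.94, 3.11 and 2.84 in 85% O2 (-0.72 ± 0.09, adjusted p = 2.6e-05). Rps21 was at 4.79, 4.80, 4.56 and 4.99 in 21% O2 and at 4.13, 4.12, 4.10 and 3.93 in 85% O2 (-0.72 ± 0.11). Rpl7a was at 6.32, 6.28, 6.19 and 6.23 in 21% O2 and at 5.80, 5.75, 5.77 and 5.63 in 85% O2 (-0.52 ± 0.08). The groups did not overlap in any of the 3 genes. Rpl10a (-0.27) and Rpl6 (-0.20) were lower by less, and the 4 probes of Rpl6 ranged from -0.45 to 0.03, of which 2 were called lower. None of the stalk genes was called at P5, where their differences were 0.03 (Rplp0), -0.12 (Rplp1) and -0.09 (Rplp2). Rpl5 (0.01) and Rps7 (-0.01) were also not called.

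The oxygen effect itself differed between the ages for many members. In the fit of all 32 arrays, the difference of the oxygen effect, P14 minus P5, was called in 46 of 79 members, 43 with the more positive effect at P14 and 3 with the more negative one, against 23% and 17.9% of 39162 tested probes. With quantile normalization the counts were 14 and 13 (17.7% of members called more positive, against 21% of all probes), with the 95th percentile 28 and 7 (35.4% of members called more positive, against 17.4% of all probes), and with the authors' processed values 12 and 13. Rpl41 differed by 0.81 ± 0.12 (adjusted p = 1.27e-05), Rpsa by 0.80 ± 0.14 (8.95e-05), Rps15 by 0.77 ± 0.11 (6.38e-06), and all 3 were called in every alternative. Rps4l, which fell at P5 and had a difference of -0.05 at P14, differed by 0.67 ± 0.15, a call lost with normexp. The stalk genes differed by 0.48 (Rplp0), 0.54 (Rplp1) and 0.59 (Rplp2), of which Rplp0 lost its call with quantile normalization and the authors' values (down to 0.09) and Rplp2 with the authors' values (0.28). Rpl10a was lower in 85% O2 at P5 and higher at P14 (0.26, adjusted p = 0.00334, a call that quantile normalization, the 95th percentile and the authors' values did not keep), and its oxygen effect differed by 0.52 ± 0.07. Rpl5 differed by -0.40 ± 0.11 and Rps19 by -0.35 ± 0.12 (a call lost in 5 of 26 alternatives), and the third negative call, Rpl10l, follows from the filter that kept it, as described above, and was lost with normexp. For Rps27l and Rps21 the difference between ages was 0.13 (95% interval -0.08 to 0.34) and -0.06 (-0.33 to 0.22), and neither was called. Of the 20 members called at P5 and the 58 of the same 78 genes called at P14, 11 had the same direction (55% and 19% of each list), with 9 higher and 2 lower, and 2 had opposite directions, Rpl10a and Rpl27. Over all probes the same-direction shares were 56.5% and 41.5%, so the first share was like that of all probes and the second was below it.

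**Figure D3:**
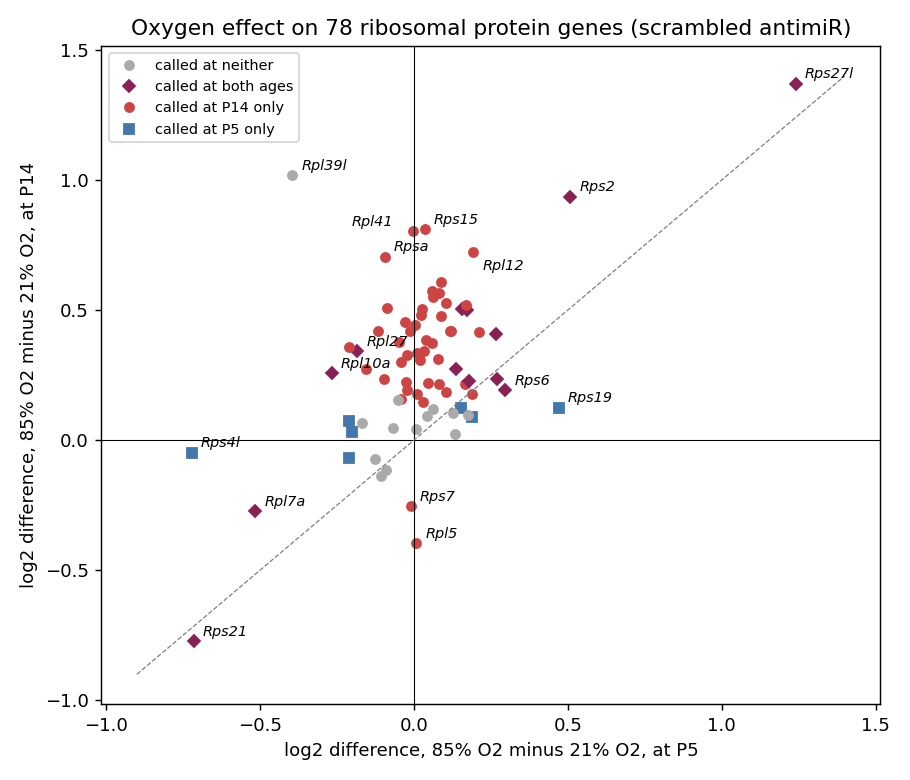
Log2 difference between 85% O2 and 21% O2 in scrambled antimiR pups at P5 (horizontal) and P14 (vertical) for the 78 ribosomal protein genes tested at both ages, marked by the age at which they were called; the dashed line marks equal differences. Most points called at P14 only lie near 0 on the P5 axis and above 0 on the P14 axis, while Rps27l, Rps2, Rps21 and Rpl7a lie away from 0 in the same direction at both ages.

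The same oxygen comparison in the antimiR-34a pups used other animals, although on the same slides. At P14, 43 of 79 members were higher in 85% O2 and 8 lower, against 27.8% and 37.8% of all tested probes, and the median was 0.19 (all probes -0.11). The split was 19 higher and 22 lower with the 95th percentile. There 24.1% of members against 17.8% of all probes were higher, 27.8% against 49.8% were lower, and the medians were -0.02 and -0.33. This scaling shifts every probe of an array by the same amount, so it moves members and all probes alike. With quantile normalization the split was 34 and 13 (43% of members higher, against 35% of all probes). Of these scalings, only the 95th percentile turned the split. A total of 48 members were called the same way as in scrambled antimiR pups (81.4% of the 59 called there and 94.1% of the 51 called here), 43 higher and 5 lower, Rpl10l among the latter. For all probes the corresponding shares were 83.8% and 77.7%. Rps27l (1.38), Rps2 (1.10), Rpl12 (0.70), Rpl41 (0.69), Rps15 (0.62), Rpsa (0.57), Rps21 (-0.86), Rpl5 (-0.32), Rpl7a (-0.31) and Rps7 (-0.30) were all called. At P5, 14 of 78 were higher and 10 lower (all tested probes 17.2% and 29.5%), and the median was -0.02. The 95th percentile, which moves all probes alike, gave 6 and 18 (7.69% and 23.1%, against 13.6% and 34.9% of all probes). Quantile normalization gave 24.4% higher and 15.4% lower (all probes 21.6% and 22.4%), so of these scalings only the 95th percentile turned the split. Rps27l rose by 1.12 there and Rps21 fell by 1.08, and 17 members were called the same way as in scrambled antimiR pups (85% of 20 and 70.8% of 24, against 74.8% and 70.4% over all probes).

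AntimiR-34a itself was set against the scrambled antimiR within each pairing of age and oxygen, and limma called no member in any of the 4 comparisons. Over all tested probes 0.136% were called in 21% O2 at P5, 0.0639% in 85% O2 at P5, 0% in 21% O2 at P14 and 2.66% in 85% O2 at P14. At an unadjusted p under 0.05, 20, 4, 0 and 13 members passed (25.6%, 5.13%, 0% and 16.5%, against 17.4%, 13%, 10.5% and 16.7% of all tested probes), and the methods' t-test with adjustment called 0 members in each. With array weights, which let an array count less, limma called 5 members in 21% O2 at P14. The median member differences were 0.12, 0.06, -0.01 and -0.09, and 68 of 78, 63 of 78, 29 of 79 and 8 of 79 members had a positive difference (87.2%, 80.8%, 36.7% and 10.1%). Among the 801 tested probes, members included, with a mean level of at least 5.75, which most members exceed, 84.4%, 80%, 43.1% and 14.4% did, so these tallies were close to those of bright probes in general. With quantile normalization the first of these medians was -0.04 and the last was 0.00. Among the smallest p-values in 21% O2 at P5 were those of Rps6 (0.18, adjusted p = 0.169) and Rps21 (0.34, 0.17). In 85% O2 at P5 they belonged to Rpl28 (0.17, 0.281), Rps15 (0.21, 0.288) and Rpl18 (0.12, 0.33). In 85% O2 at P14 Rps27 (-0.22, 0.125) was among the closest to the threshold. In 21% O2 at P14 they included Rpl28 (-0.14, 0.476) and Rpl10l (1.02, 0.499). Rps27l had intervals of the antimiR difference of -0.18 to 0.20 in 21% O2 and -0.16 to 0.21 in 85% O2 at P14, narrow beside its oxygen difference.

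Whether the antimiR effect differed between oxygen levels was also tested, and limma called no member at either age (all probes 0.0556% at P5 and 0.0884% at P14). At an unadjusted p under 0.05, 4 members passed at P5 and 1 at P14 (5.13% and 1.27%, against 10.9% and 15% of all tested probes). Among the genes with the smallest p were Rpl23a (0.19, adjusted p = 0.396), Rps21 (-0.37, 0.426) and Rps6 (-0.18, 0.436) at P5, and Rpl35a (-0.17, 0.324) and Rpl22 (-0.18, 0.337) at P14. The number of pups limits these comparisons, and a missed threshold does not show that the antimiRs acted alike.

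Normal development was read from the 21% O2 scrambled antimiR pups. Between P5 and P14, 19 of 79 members rose and 13 fell, against 27.8% and 23.5% of all tested probes, and the median member difference was 0.02. With quantile normalization the counts were 7 and 42 (8.86% and 53.2% of members, against 24.3% and 28% of all tested probes), with the 95th percentile 16.5% of members rose and 25.3% fell (all probes 24.1% and 27.2%), and with the authors' processed values the counts were 6 and 42, so the direction of the family with age turns with the scaling. Leaving aside Rpl10l, which was kept only through the P14 21% O2 groups, the largest rises included Rpl10 (0.41 ± 0.08, adjusted p = 9.56e-05), Rpl3 (0.34 ± 0.05), Rpl21 (0.33 ± 0.07) and Rps12 (0.31 ± 0.09). Of these, the Rpl10 and Rps12 calls were lost with quantile normalization. The largest falls were in Rps4l (-0.50 ± 0.11, adjusted p = 0.0004), Rps15 (-0.42 ± 0.08), Rpl36a (-0.38 ± 0.05), Rpl18 (-0.31 ± 0.05) and Rpl41 (-0.28 ± 0.09). Rps15 went from 5.998, 6.14, 6.12 and 6.22 at P5 to 5.73, 5.64, 5.73 and 5.70 at P14, and Rpl41 from 7.88, 8.02, 7.77 and 7.81 to 7.54, 7.57, 7.55 and 7.70. In both genes no P14 pup reached the lowest P5 pup, and both were among the genes with the largest rise in 85% O2 at P14. The comparisons of oxygen at P14 and of age share the P14 21% O2 arrays. Markers of other cells moved with age as well: 8 of 8 lymphocyte markers were higher at P14 (median 0.88), 7 of 7 proliferation markers were lower (median -2.02), 5 of 8 lung epithelium markers were higher and 4 of 8 red cell markers lower. Their part in the differences was not tested. The labels give different agents for euthanasia at P5 and P14, while the study's methods name the same one for both, so it is not settled whether the agent changed with age.

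Several probes measured most members, and they did not always give the same answer. Of the 57 genes with more than 1 kept probe, all probes had the same sign in 40 for oxygen at P14, in 21 for oxygen at P5 and in 27 for age. At P14, 6 genes had probes called in both directions (Rpl11, Rpl13, Rpl14, Rpl17, Rpl21 and Rps3). Ribosomal protein genes have many near-identical copies in the genome. The array annotation places the probes of 49 of these genes on more than 1 chromosome, and the brightest probe of 36 of the 57 genes with both positions known lies on another chromosome than the gene, so the signal of such a probe cannot be assigned to the parent gene alone. This holds, among others, for the brightest probes of Rpsa, Rps15, Rpl12, Rplp0, Rplp2 and Rps19. The Rps27l probe has no annotated position, and no start was listed for Rplp1, whose brightest probe is placed on chromosome X. Sharing a chromosome does not show that a probe lies in the gene. The brightest probe of Rps2 is placed from chr17:42864841 (mm9), while its printed window starts at chr17:24720048 (GRCm38.p6). For the 33 genes with a probe on their own chromosome, that probe gave 24 higher and 2 lower in 85% O2 at P14 (median 0.35), where the brightest probe of the same 33 genes gave 27 and 1 (median 0.33). For age the own-chromosome probes gave 6 higher and 15 lower (median -0.14), against 7 and 7 (median -0.04) for the brightest, and for oxygen at P5, over 32 genes, 2 and 5 against 4 and 3. Rps27l, Rpl41, Rps21, Rps7, Rps19, Rps4l and Rpl10l were read by 1 kept probe each.

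How the level of the family went with the brightness of the array depended on the scaling. With the 75th percentile scaling that percentile is part of each level. The sign of the correlation therefore cannot be read as a property of the family. Within groups, the mean of the 72 members fell as the 75th percentile of the array rose, with a Pearson correlation of -0.64 (Spearman -0.65) over the 32 arrays, which share 4 slides, and -0.64 without the 2 arrays farthest from the median. Of the 79 members, 64 had a negative correlation, with a median of -0.43. After quantile normalization the correlation was 0.91 in place of a negative one, with normexp background correction it was -0.35, and with the 95th percentile scaling it was -0.77 (Spearman -0.81). The signal also spread more in 1 condition: the 95th percentile lay 3.91 to 4.03 above the 75th on the P14 85% O2 arrays and 3.70 to 3.82 above it on all others. The 75th percentile itself ranged over 9.37 to 9.90 in 85% O2 and 9.34 to 10.17 in 21% O2 at P14 in scrambled antimiR pups, and that overlap rests on 1 array. Without replicate 4 of the 21% O2 group (9.34), the other 3 arrays, at 10.12 to 10.17, were all brighter than every 85% O2 array, so brightness moved with oxygen there. Its part in the result was not tested beyond the covariate. With the percentile as a covariate 48 members were higher and 7 lower. Without replicate 4 of the P14 21% O2 scrambled antimiR group, the dimmest of its group, 54 were higher and 5 lower, as before.

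**Figure D4:**
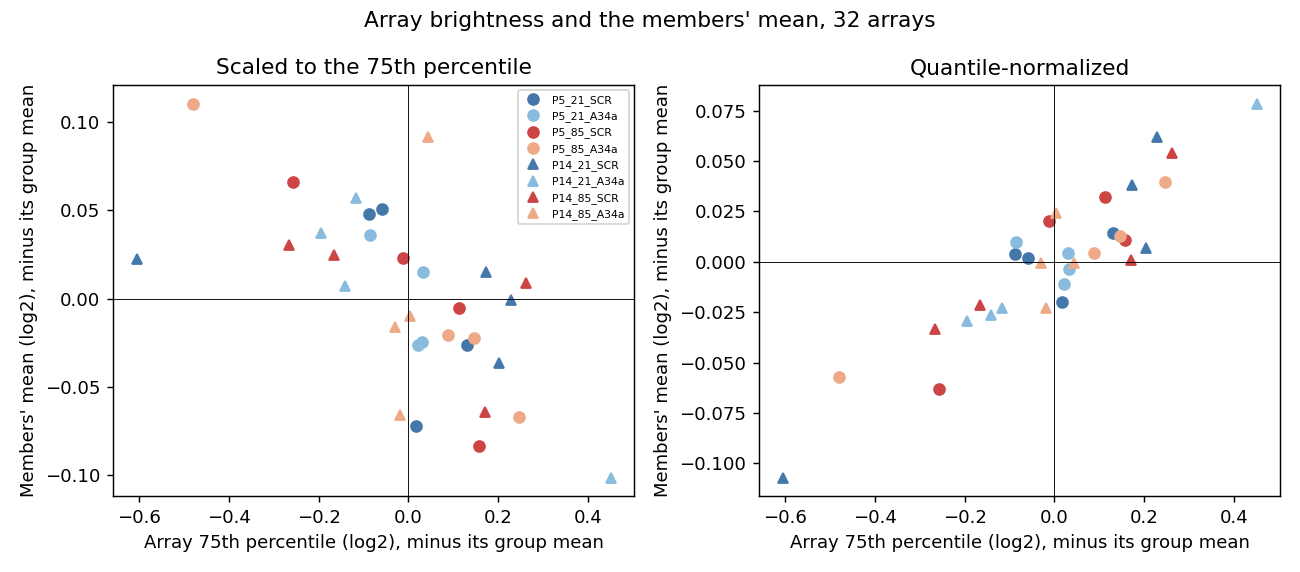
Deviation of each array's 75th percentile (horizontal, log2) and of the mean of the 72 ribosomal protein genes (vertical, log2) from its group mean, for the 32 arrays, with the 75th percentile scaling (left) and after quantile normalization (right). The points fall from left to right in the first panel (r = -0.64) and rise in the second (r = 0.91).

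Other bright probes moved in the same direction. Among 677 tested probes that are not members but had a mean level of at least 5.75, which most members exceed, 52.9% were higher in 85% O2 at P14 in scrambled antimiR pups and 10.3% lower, with a median of 0.25, beside 68.4%, 6.33% and 0.27 for the members. With the 95th percentile 33.4% of them were higher and 18.6% lower (members 36.7% and 13.9%), and with quantile normalization 29.2% and 22.5% (members 29.1% and 13.9%). Both sets lost higher calls under the other scalings, and the difference between them was not tested.

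**Figure D5:**
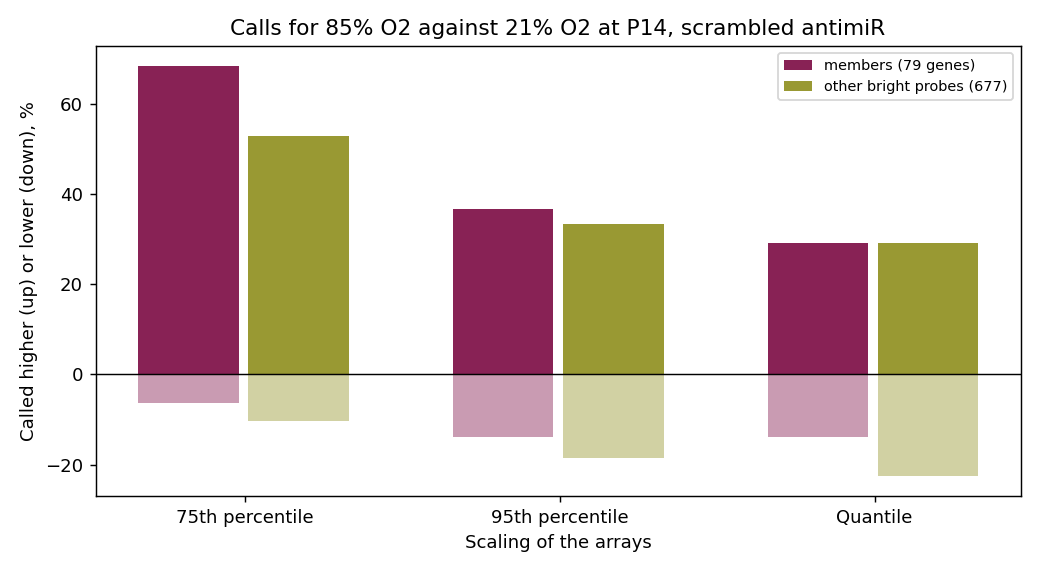
Percent of the 79 ribosomal protein genes and of 677 other bright probes that were called higher (bars up) or lower (paler bars down) in 85% O2 against 21% O2 at P14 in scrambled antimiR pups, under 3 scalings of the arrays. Both sets lose higher calls together when the scaling changes, from 68.4% and 52.9% with the 75th percentile to 29.1% and 29.2% with quantile normalization.

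The machinery around the ribosome was read from lists written by hand. Their counts stand beside 28.4% of all tested probes higher and 32.4% lower at P14, and 17.5% and 26.4% at P5. The list counts here and below come only from the percentile scaling that defines the levels. Members and other bright probes lost higher calls at P14 under the other scalings. Whether the list counts hold under those scalings was not tested. Of 42 genes for ribosomal RNA synthesis and ribosome assembly, 27 were higher and 2 lower in 85% O2 at P14 in scrambled antimiR pups (median 0.43), and 19 were higher and 2 lower at P5 (median 0.24). Polr1a, the large subunit of RNA polymerase I, rose by 1.04 at P14, as did Bysl, with Rrp9 at 1.01 and Utp20 at 0.98, and at P5 the largest rises were in Nob1 (0.60), Gnl3 (0.55), Wdr12 (0.53) and Rrs1 (0.53). Dkc1 and Pes1 were the 2 lower genes at both ages. Of 76 proteins of the mitochondrial ribosome, which is encoded apart from the cytosolic one, 53 were higher and 3 lower at P14 (median 0.36), and 33 and 1 at P5 (median 0.17). Mrps18b rose by 0.60 at P5 and 1.19 at P14, and Mrps7 by 0.46 and 1.15.

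Translation factors whose messenger RNAs are also of the TOP class formed another list, counted under the same scaling alone. Of 24, 15 were higher and 4 lower at P14 (median 0.29), and 2 were higher and 4 lower at P5 (median 0.04). The elongation factors Eef1d and Eef2 rose by 0.65 and 0.60 at P14, and the initiation factors Eif4b and Eif3k by 0.58 and 0.56. Of 23 genes of translation control, 10 were higher and 5 lower at P14 and 8 and 2 at P5. Sesn2, a p53-responsive inhibitor of mTORC1, rose by 1.48 at P5 and 1.30 at P14. Rheb, which activates mTORC1, was lower by a log2 difference of -0.44 at P5 and -1.09 at P14, and Pdcd4, an inhibitor of initiation, by -0.71 and -2.10. Of 9 members on the list of MDM2-binding and p53-linked ribosomal proteins, 5 were higher and 2 lower at P14 and 2 higher and 0 lower at P5, where the higher share is near that of all probes. Rpl11 and Rpl23, for which no direction is given, are among the 5, as is Rps27, which turned negative with quantile normalization. In antimiR-34a pups at P14 the same list had 2 higher and 2 lower (median 0.03). Of 7 ribosomal protein-like genes outside the members, Rpl22l1, the paralog of Rpl22, was lower at both ages (-0.74 at P5 and -0.45 at P14) and Rpl7l1 was higher (0.52 and 0.98).

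Marker genes of other cells moved with oxygen too, in counts that also come only from the scaling that defines the levels. At P14 in scrambled antimiR pups, 7 of 8 lymphocyte markers were lower in 85% O2, and their summed level (log2) was 3.90 to 4.26 in 21% O2 and 2.65 to 3.19 in 85% O2. Of 8 markers each, 5 of skeletal muscle (2.40 to 3.46 against 0.90 to 1.47), 5 of heart muscle (6.76 to 7.56 against 5.17 to 6.43) and 5 of red blood cells (7.90 to 9.01 against 6.93 to 8.21) were lower. At P5, 7 of 7 proliferation markers (5.91 to 6.21 against 4.90 to 5.20), 7 of 8 of heart muscle, 4 of 8 of red blood cells, 3 of 8 of skeletal muscle, 2 of 8 of lymphocytes and 2 of 8 of neutrophils were lower, and of 8 lung epithelium markers 2 were higher and 1 lower. Of 8 neutrophil markers 2 were higher and 1 lower at P14, and of 8 lung epithelium markers 3 were higher and 2 lower, with 2 of 7 proliferation markers lower. Among these markers in the scrambled antimiR groups, only Epb4.2 of the red cell list was above background on no array of a group (P14 85% O2). The part of these cell types in the differences of the ribosomal protein genes was not tested.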

How the data were processed

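RNA from 32 mouse lungs was measured on one-colour Agilent arrays. Per the labels, RNA was isolated with a miRNeasy kit, while the study's methods name peqGOLD, and the agents for euthanasia differ likewise; which applied to these arrays is not settled here. The authors deposited one scanner file per array with spot intensity (Agilent Feature Extraction 10.7.3.1, background-subtracted processed signal; mm9 probe positions) and a table of quantile-normalized log2 values, which correlated with the scanner values at 0.9974 to 0.9999. From the intensity values, outlier spots (0.2109%) were removed, repeated spots averaged, log2 taken and the 75th percentile of each array subtracted. Probes that the software called well above background in all 4 pups of a group in the fit were tested with limma 3.58.1 (R 4.3.3, group means, Benjamini-Hochberg over all tested probes, threshold 0.05), with each age fitted on its own and age comparisons on all arrays. GEO labels gave the groups. Nothing in the labels says that litters differed between pups, so p-values measure the spread between these samples. The number of arrays limits the precision.

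The members and lists were chosen with earlier results of these data known. Named genes were 30 members listed by hand and, per comparison, up to 6 higher and 6 lower called members with non-overlapping groups and the largest change, or the 3 with the smallest p where none was called; from other lists up to 4 were named. The code was tested on simulated data. Alternatives were other scalings (quantile, 95th percentile), normexp background correction with an offset of 50, the authors' log2 table, other filters, fits of the compared groups alone, the methods' t-test, a replicate block, the percentile as covariate, array weights, any probe of a gene and leaving out each array. A probe on the gene's own chromosome was added after seeing the data. Results for some members that the rule would name are not reported here.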

Additional observations from a re-analysis of the deposited data

Results flagged for a closer look

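Of 151 groups of 4 arrays that were examined, 18 held an array that stood apart, where about 1 in 20 would by chance. For the brightness of the array (75th percentile, log2), these were P5 21% O2 antimiR-34a replicate 3 at 9.60 (others 9.71 to 9.72), P14 21% O2 scrambled antimiR replicate 4 at 9.34 (others 10.12 to 10.17) and P14 21% O2 antimiR-34a replicate 1 at 10.20 (others 9.56 to 9.64). The last of these arrays also stood apart for Rps15 (5.45), Rpl41 (7.46), Rpl10l (-3.66) and Rpl10a (6.97). P14 21% O2 scrambled antimiR replicate 4 stood apart for Rpl41 (7.70). In the P14 85% O2 scrambled antimiR group, replicate 1 was apart for Rps27l (6.24) and replicate 2 for Rps21 (3.91). In the P14 85% O2 antimiR-34a group, replicate 2 was apart for Rps2 (7.33) and Rpl41 (8.44). At P5 in 21% O2, scrambled antimiR replicate 2 was apart for Rpl12 (6.61) and replicate 1 for Rpsa (7.53), and antimiR-34a replicate 2 for Rps15 (6.32) and replicate 3 for Rplp1 (7.67). At P5 in 85% O2, antimiR-34a replicate 3 was apart for Rpl12 (7.22) and scrambled antimiR replicate 1 for Rpl10l (-6.33), which was not above background there.

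The oxygen effect in scrambled antimiR pups differed between P5 and P14 in 46 members by the limma contrast of all 32 arrays. Among the genes described, the difference was positive for Rpl41 (0.81), Rpsa (0.80), Rps15 (0.77), Rps4l (0.67), Rplp2 (0.59), Rplp1 (0.54), Rpl12 (0.53), Rpl10a (0.52), Rplp0 (0.48), Rps2 (0.43) and Rpl7a (0.24). It was negative for Rpl10l (-3.10, which is no measured size, since the probe was above background in only 1 of the 4 groups compared, P14 21% O2), Rpl5 (-0.40) and Rps19 (-0.35). The call of Rpl7a was lost in 14 of 26 alternatives and that of Rps19 in 5 of 26, with the brightness covariate and without replicate 3 of P5 21% O2, replicate 2 of P5 85% O2, or replicate 3 or 4 of P14 85% O2. Rpl12 (down to 0.25), Rplp0 (0.09) and Rps2 (0.14) lost their calls with quantile normalization and the authors' values, Rplp2 with the authors' values, and Rps4l and Rpl10l with normexp.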

How the results depend on the processing

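Counts of called members changed with scaling and with the probe rule. Quantile normalization gave 34 members for oxygen in scrambled antimiR pups at P14 (59 with the 75th percentile), 49 for age (32) and 27 for the difference of the oxygen effect between ages (46), and the authors' processed values gave 32 for the first and 25 for the last. Fitting the compared groups alone gave 13 for oxygen at P5 in scrambled antimiR pups (20). Counting any called probe gave 38 there, 46 in antimiR-34a pups at P5 (24) and 54 for age. Array weights gave 5 members for the antimiR in 21% O2 at P14 and 2 for its difference between oxygen levels at P14, in place of 0. The correlation with array brightness, -0.64, was 0.91 after quantile normalization and 0.91 with the authors' values. Signs turned for single genes. For oxygen at P14 in scrambled antimiR pups, quantile normalization gave -0.0684 for Rpl11, -0.021 for Rpl23, -0.0618 for Rpl3, -0.0365 for Rpl32, -0.0766 for Rps27 and -0.0699 for Rps6. The 95th percentile gave -0.0002 for Rpl11, -0.037 for Rpl3 and -0.0058 for Rpl32. The authors' values gave -0.0701 for Rpl11, -0.0247 for Rpl23, -0.59 for Rpl28, -0.0614 for Rpl3, -0.0393 for Rpl32, -0.0006 for Rpl39, -0.0793 for Rps27 and -0.0706 for Rps6. In antimiR-34a pups at P14, the 95th percentile gave -0.0016 for Rpl10a, -0.0109 for Rpl19, -0.0319 for Rpl29, -0.0723 for Rpl35a, -0.047 for Rpl39 and -0.0225 for Rps12, and quantile normalization -0.0020 for Rpl35a. For age, Rps14 was at -0.21 with quantile normalization and -0.21 with the authors' values. For the oxygen effect between ages, Rpl28 was at -0.52 with the authors' values. The causes were not tested. Leaving out 1 array gave 15 to 22 members for oxygen in scrambled antimiR pups at P5, 52 to 59 at P14, 19 to 29 and 46 to 52 in antimiR-34a pups, 24 to 32 for age, 43 to 49 for the oxygen effect between ages and 0 to 0 for each antimiR comparison. With the replicate number as a block the counts were 18, 58, 22 and 48 for oxygen, 31 for age, 46 for the oxygen effect between ages and 0 for each antimiR comparison. Same-numbered arrays did not deviate together throughout (correlations of 0.42, -0.06, -0.35 and 0.50 for the antimiR in 21% O2 at P14). For the antimiR in 85% O2 at P14, 3 arrays correlated best with their own number, where the same-number correlations were -0.07 to 0.08. Whether the numbers pair the pups is therefore not settled. Slide as a block could not be fitted and was not run. Probes near background have only a bound.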
